A study of Saccharomyces cerevisiae with 6 samples.

Results

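The late ergosterol synthesis genes encode the enzymes that turn squalene into ergosterol, the main membrane sterol of fungi. The 10 genes ERG1, ERG7, ERG11, ERG24, ERG25, ERG6, ERG2, ERG3, ERG5 and ERG4 were taken by symbol from a table of 6932 entries, and each symbol matched 1 entry. RNA was sequenced from meiotic cultures of Saccharomyces cerevisiae at 4 h in meiosis, with 2 samples from each of 3 genotypes, WT, bas1 and ino4. All cultures were grown in acetate medium and sporulated in 2% potassium acetate at 30 °C. The labels name the mutants by gene only and do not state the kind of mutation, the strain background, further alleles or whether samples of a genotype were separate cultures.

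The deposited table holds a single FPKM column for each genotype (fragments scaled to gene model length and to the mapped fragments of the library). The spread between samples is therefore unknown, no test was possible, and every difference below is between the authors' values without a replicate check. Differences are in log2(FPKM + 1), a scale on which changes of low genes look smaller, and a gene counts as past the 2-fold rule when this difference is 1 or more in size. Ratios are plain ratios of FPKM. Entries were compared when they reached an FPKM of 1 in some genotype and were above 0 in all 3, which left 6153 entries and all 10 members. The depth is unknown, and in bulk RNA fewer cells carrying a transcript and less of it per cell cannot be told apart.

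In yeast, squalene is oxidised and folded into lanosterol, the first sterol. Lanosterol then loses its extra methyl groups, gains a methyl group on the side chain, and has its double bonds moved and added until ergosterol is formed. Several steps need molecular oxygen, heme or iron, so the pathway stops without air. The zinc cluster factors Upc2 and Ecm22 activate many of its genes when sterols run low. Bas1 is a Myb-related activator of purine, histidine and one-carbon genes, and Ino4 pairs with Ino2 to activate phospholipid synthesis genes.

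The targeted genes were low in their own mutants. BAS1 stood at 19.4 FPKM in WT, at 0.00985 in bas1 and at 21.1 in ino4. INO4 stood at 307 FPKM in WT, at 271 in bas1 and at 0.339 in ino4. The cultures carried meiotic transcripts in every genotype. The lowest of 7 early meiotic genes, SPO11, whose product cuts DNA to start recombination, stood at 83.9 FPKM in WT, at 104 in bas1 and at 102 in ino4.

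In WT the pathway was expressed unevenly. ERG25, the oxidase that starts removal of a methyl pair from the sterol ring, had an FPKM of 2032 and ERG24, the reductase just before it, had 51.5. These were the highest and the lowest of the 10, 39.5-fold apart. ERG25 alone made up 48.2% of the summed FPKM of the 10 genes in WT, 49.5% in bas1 and 44.6% in ino4. Among all compared entries ERG25 stood at percentile 99 of the WT levels and ERG24 at percentile 48.9. Among the 10 genes the WT level stepped down from ERG25 onward, through ERG6 (677), ERG2 (396), ERG3 (282), ERG5 (209) and ERG4 (172). The demethylation genes ERG26 and ERG27, which act between ERG25 and ERG6 and are not among the 10, had lower WT values of 111 and 113. The same descending order of the 6 members was present in ino4. In bas1 it was broken at ERG3, which stood at rank 4 of the 10 in WT and at rank 8 in bas1. ERG5 and ERG11, with FPKM values of 209 and 205 in WT, changed places between WT and either mutant, and no spread is known against which to separate such close levels.

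**Figure D1:**
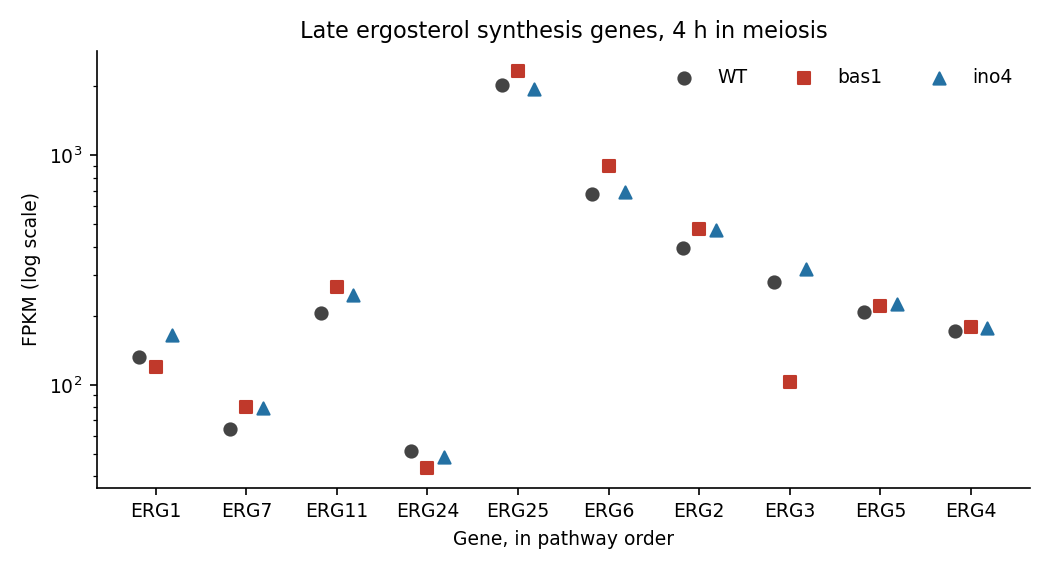
FPKM (log scale) of the 10 late ergosterol synthesis genes in pathway order, with 1 point per genotype holding the authors' value for WT, bas1 or ino4 and no error bar because no replicate values were used. The 3 points of a gene lie close together except at ERG3, where bas1 (103) lies under WT (282) and ino4 (318).

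The comparison of bas1 with WT asked how the pathway's transcripts differ in the bas1 mutant. ERG3 was the only one of the 10 past the 2-fold rule. It encodes the desaturase that adds a double bond to the sterol B ring, and its entry lies on sacCer2 chromosome XII from 253862 to 254959. Its FPKM was 282 in WT, against 103 in bas1 and 318 in ino4. The bas1 value was 2.74-fold lower than WT, a difference of -1.44. WT and ino4 were close to each other and bas1 alone was low. Of the 10 genes 1 was at least 2-fold lower in bas1, against a background of 2.34% of all compared entries, and 0 were at least 2-fold higher, against 0.975%. Of the 6153 entries, 46 had a lower difference than ERG3. Among the 1964 entries with a mean FPKM of at least 100, there were 26 such entries, and 3.11% of these well expressed entries were at least 2-fold lower.

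The other 9 genes lay between -0.24 and 0.40 in bas1, with 7 higher and 2 lower than WT. Over all 10 the median was 0.14, and over the 9 without ERG3 it was 0.20, beside 0.01 for all compared entries. In this comparison 50.6% of all entries were above 0. The middle 90% of all entries ran from -0.70 to 0.53, and the 9 genes all lay inside that range.

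ERG1 and ERG7 open the late pathway. ERG1, the squalene epoxidase and target of the antifungal terbinafine (chromosome VII, 846938 to 848428), stood at 132 FPKM in WT, at 119 in bas1 and at 165 in ino4. It was the member with the largest positive difference in ino4, 0.32, while its difference in bas1 was -0.15. ERG7, the lanosterol synthase (chromosome VIII, 238912 to 241295), stood at 64.0 FPKM in WT, at 80.2 in bas1 and at 79.7 in ino4. Both mutants were above WT by nearly the same amount, 0.32 and 0.31. The listed position of ERG7 overlaps that of YHR071C-A, which had 54.7, 79.7 and 87.2. How much of either gene is shared was not worked out. Reads in the shared stretch cannot be assigned because the use of strand in counting is not given.

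ERG11, ERG24 and ERG25 strip the methyl groups. ERG11, the cytochrome P450 that demethylates lanosterol and the target of azole antifungals (chromosome VIII, 120086 to 121678), stood at 205 FPKM in WT, at 268 in bas1 and at 247 in ino4. Both mutants were higher than WT, by 0.39 and 0.27. ERG24, which reduces the double bond that ERG11 leaves (chromosome XIV, 109095 to 110411), had 51.5, 43.5 and 48.3. It was the one member lower than WT in both mutants, with differences of -0.24 and -0.09. ERG25 (chromosome VII, 610568 to 611497) stood at 2032 FPKM in WT, at 2337 in bas1 and at 1952 in ino4, differences of 0.20 and -0.06.

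ERG6, ERG2, ERG5 and ERG4 reshape the ring and side chain around the ERG3 step. ERG6, the sterol methyltransferase that uses S-adenosylmethionine (chromosome XIII, 251839 to 252990), stood at 677 FPKM in WT, at 895 in bas1 and at 692 in ino4. It had the largest positive difference of the 10 in bas1, 0.40, a ratio of 1.32, and 0.03 in ino4. ERG2, the isomerase that shifts a ring double bond just before the ERG3 step (chromosome XIII, 667536 to 668204), had 396, 477 and 474. Both mutants were above WT by nearly the same amount, 0.27 and 0.26. ERG5, the second cytochrome P450 of the pathway, which desaturates the side chain (chromosome XIII, 300868 to 302484), had 209, 221 and 226. ERG4, the reductase of the last step (chromosome VII, 472860 to 474281), had 172, 179.6 and 177. In bas1 these last genes of the pathway were the closest of the 10 to WT, with differences of 0.09 and 0.06, and in ino4 they had 0.12 and 0.04.

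Ratios between genes of the same genotype do not depend on how the genotypes were scaled to each other by a common factor. The FPKM of ERG3 was 1.23 times the geometric mean of the other 9 genes in WT, 1.27 times in ino4 and 0.405 times in bas1. Set against its neighbours in the pathway, ERG2 was 1.41 times ERG3 in WT, 1.49 times in ino4 and 4.63 times in bas1. ERG3 was 1.35 times ERG5 in WT and 1.41 times in ino4, while in bas1 it was 0.465 times ERG5. The place of ERG3 among the pathway's transcripts was thus nearly the same in WT and ino4 and lower in bas1.

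The members were also grouped by their use of oxygen. ERG1, ERG11, ERG25, ERG3 and ERG5 use molecular oxygen. Of these 5, 3 were higher and 2 lower in bas1, with a median of 0.09, and the 4 besides ERG3 lay within the 2-fold rule. The remaining 5 members that do not use oxygen, ERG7, ERG24, ERG6, ERG2 and ERG4, had 4 higher and 1 lower, with a median of 0.27.

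**Figure D2:**
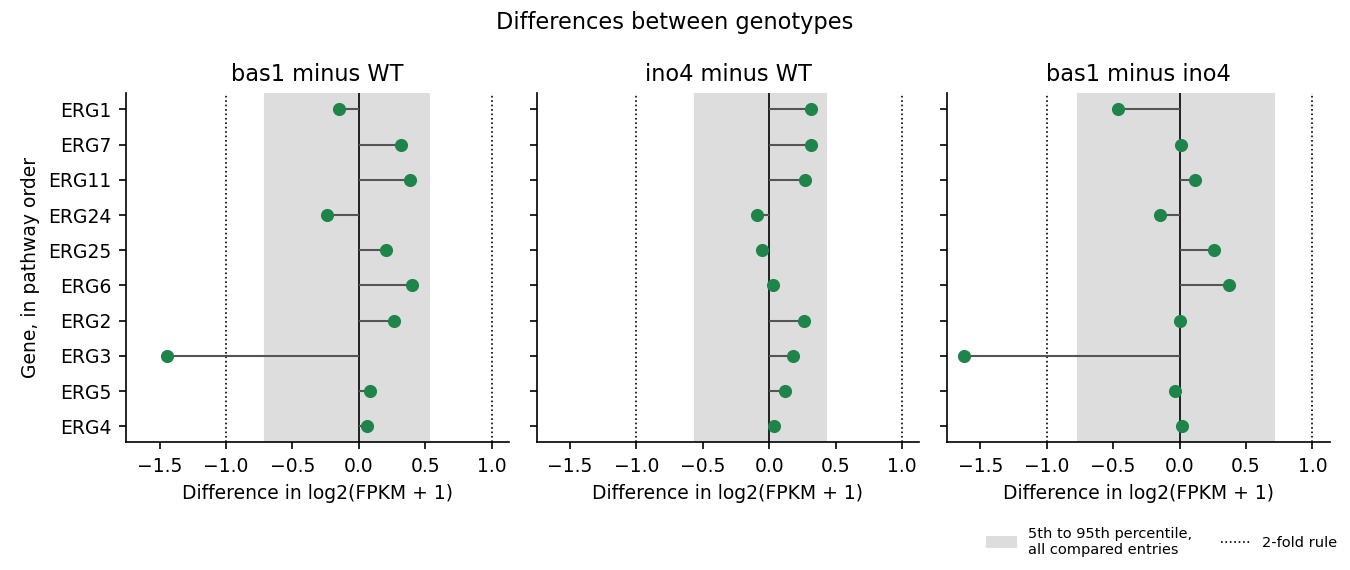
Differences in log2(FPKM + 1) of the 10 genes, in pathway order, for bas1 minus WT, ino4 minus WT and bas1 minus ino4, with the grey band spanning the 5th to 95th percentile of all compared entries and dotted lines at the 2-fold rule. ERG3 lies at -1.44 and -1.62 in the panels that hold bas1, which share 1 bas1 value, and inside the band, at 0.18, in ino4 minus WT.

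The comparison of ino4 with WT asked the same of the ino4 mutant. None of the 10 genes was past the 2-fold rule in ino4, where 0.683% of all entries were at least 2-fold higher and 1.76% were at least 2-fold lower. The differences ran from -0.09 at ERG24 to 0.32 at ERG1, and 8 of 10 were above 0, beside 49.4% of all entries. The median was 0.15 beside -0.003 over all entries. The genes at the start of the pathway, ERG1 and ERG7, and ERG11 and ERG2 had the larger values, from 0.26 to 0.32. ERG25, ERG6, ERG5 and ERG4 were between -0.06 and 0.12. ERG3 was at 0.18. This comparison and the preceding one share the WT values, so a gene above or below WT in both is not independently seen in each.

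Set directly against each other, bas1 and ino4 differed past the 2-fold rule at ERG3 alone among the 10. ERG3 was 3.09-fold lower in bas1 than in ino4, a difference of -1.62, where 2.78% of all entries were at least 2-fold lower and 2.78% at least 2-fold higher. The bas1 value of ERG3 is the same one that was set against WT, so the low value is not seen a second time here. The other 9 ran from -0.46 at ERG1 to 0.37 at ERG6. ERG7, ERG2, ERG5 and ERG4 were within 0.04 of equal in the mutants. Of the 10 genes 6 were above 0 and 4 below, beside 50% of all entries on either side, and the median was 0.01.

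The genomic surroundings of ERG3 held another gene with a large difference in bas1. Besides ERG3, 5 compared entries lie within 5 kb of it. SHM2, the cytosolic serine hydroxymethyltransferase of one-carbon metabolism (chromosome XII, 257993 to 259402), starts 3033 bp beyond the end of ERG3. Its FPKM was 58.3 in WT, against 6.57 in bas1 and 68.2 in ino4, 8.87-fold lower in bas1. YLR057W lies between ERG3 and SHM2 and had 15.7, 17.1 and 16.8. SPT8, a subunit of the SAGA coactivator on the other side of ERG3, had 11.1, 8.35 and 11.5, a difference of -0.37 in bas1. OSW2, a spore wall gene, had 32.5, 46.8 and 19.5, and REX2, an RNA exonuclease gene, had 41.7, 47.3 and 47.8. In bas1 ERG3 and SHM2 were past the 2-fold rule, and the other entries, YLR057W and SPT8 among them, lay within it.

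**Figure D3:**
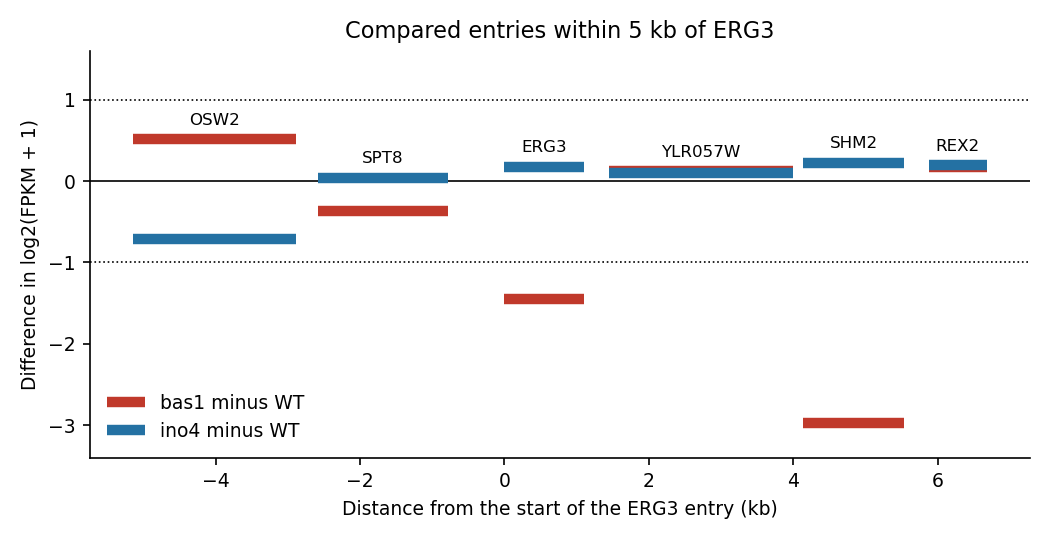
Difference in log2(FPKM + 1) for bas1 minus WT and ino4 minus WT of the 6 compared entries within 5 kb of ERG3, each drawn as a bar over its extent, against distance in kb from the start of the ERG3 entry. In bas1 ERG3 (-1.44) and SHM2 (-2.97) lie below the dotted line of the 2-fold rule and YLR057W between them lies at 0.12.

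Around all 10 genes, 21 compared entries are nearest on one side or the other. In bas1 1 of these was at least 2-fold higher and 1 at least 2-fold lower, beside 0.975% and 2.34% of all compared entries. In ino4 0 were past the rule in either direction, beside 0.683% of all compared entries higher and 1.76% lower. The lower neighbour in bas1 is an entry without a gene symbol, 169 bp long and 80 bp before ERG2 (chromosome XIII, 667287 to 667455). Its FPKM was 16.7 in WT, 4.93 in bas1 and 18.5 in ino4. ERG2 itself was higher in bas1. The higher one is YGR176W after ERG1, with 1.40, 4.68 and 2.25, values near the lower limit of an FPKM of 1. ATF2, listed at the same position, had 1.83, 2.29 and 3.42 and was within the rule. Between the mutants SPR3, a sporulation septin gene beside ERG25, had a difference of 1.68 for bas1 minus ino4 and the entry before ERG2 one of -1.72.

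Genes with a pair of differences from WT most like that of ERG3 were sought among 4610 entries with an FPKM of at least 20 in every genotype. Likeness was the straight-line distance between the pairs of log2 differences, which rest on 3 genotype values only, and 11 entries lay within 0.25. The 5 nearest were ADH2, CPS1, FBA1, MRPL33 and YLR164W. ADH2, an alcohol dehydrogenase gene used in ethanol oxidation, stood at 453 FPKM in WT, at 178 in bas1 and at 533 in ino4. FBA1, the aldolase of glycolysis and gluconeogenesis, had 2018, 657 and 2281. CPS1, a vacuolar carboxypeptidase gene, had 215, 85.9 and 233. MRPL33, a mitochondrial ribosomal protein gene, had 79.0, 32.3 and 87.2, and YLR164W had 365, 120 and 449. None of these 5 is a sterol synthesis gene.

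Genes for proteins that work with the late enzymes were looked at as a list of 7, with 0 past the 2-fold rule in either mutant. Of all compared entries 0.975% were at least 2-fold higher and 2.34% lower in bas1, and 0.683% and 1.76% in ino4. The count of 0 is thus near the share over all entries. Medians were 0.15 in bas1 and 0.24 in ino4. In each mutant 6 of 7 were above WT, beside 50.6% of all entries in bas1 and 49.4% in ino4. CYB5, the cytochrome b5 that passes electrons to sterol oxidases and desaturases such as Erg3, stood at 175 FPKM in WT, at 244 in bas1 and at 167 in ino4. ERG26, which acts with ERG25 in demethylation, had 111, 116 and 139. ERG28, a scaffold for the demethylation enzymes, had 224, 214 and 265. DAP1, a heme-binding partner of Erg11, had 157, 172 and 199. ERG29 had 309, 408 and 365.

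Upstream, the 10 genes of the mevalonate and squalene pathway also held 1 gene past the 2-fold rule in bas1. ERG20, the farnesyl pyrophosphate synthase, stood at 55.8 FPKM in WT, at 25.9 in bas1 and at 58.6 in ino4, a difference of -1.08 in bas1, and it was the only member past the rule there, although not with a pseudocount of 5 (-0.98). Of all compared entries 2.34% were at least 2-fold lower in bas1. The mevalonate and squalene list had 5 genes higher and 5 lower in bas1, with a median of 0.05. In ino4 0 were past the rule, beside 0.683% of all entries higher and 1.76% lower, and the median was 0.14. HMG1, a rate-limiting reductase of the pathway, had 58.0 in WT and 74.8 in ino4. ERG9, the squalene synthase, had 103, 84.6 and 122.

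The regulators of sterol genes were within the 2-fold rule of WT in both mutants in all 8 cases. Few of all compared entries were past it, 0.975% higher and 2.34% lower in bas1, and 0.683% and 1.76% in ino4. UPC2 stood at 21.2 FPKM in WT, at 23.0 in bas1 and at 19.3 in ino4. ECM22 had 17.5, 21.0 and 25.6, and HAP1, the heme-responsive activator, had 42.0, 40.5 and 48.6. SUT1, an activator of sterol uptake genes, had 130, 200.4 and 88.8, higher than WT in bas1 by 0.62 and lower in ino4 by -0.55, and the mutants were 1.17 apart. ROX1, the repressor of hypoxic genes, had 113, 162 and 116.

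Sterol storage and transport genes held 1 gene past the rule. YEH1, a steryl ester hydrolase that frees stored sterols, stood at 169 FPKM in WT, at 385 in bas1 and at 169.8 in ino4, a difference of 1.18 in bas1. It was the only one of 7 storage genes past the rule in either mutant. Of all compared entries 0.975% were at least 2-fold higher in bas1. ATF2, an acetyltransferase gene that shares its position with YGR176W, had 1.83, 2.29 and 3.42, and YEH2, another steryl ester hydrolase, had 19.7, 15.3 and 14.7. All 17 transport genes were within the rule in both mutants. The shares of all entries past it were 0.975% higher and 2.34% lower in bas1, and 0.683% and 1.76% in ino4. HES1, an oxysterol-binding protein gene, had 48.1, 88.4 and 55.9. PDR11, a transporter for sterol uptake, had 175, 270 and 215, and YSP2, a sterol transfer protein gene, had 36.0, 46.5 and 27.5.

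Heme, oxygen and iron genes were described because several late enzymes depend on them. The 9 heme genes had 0 past the rule and medians of 0.18 in bas1 and 0.14 in ino4. Shares over all entries were 0.975% higher and 2.34% lower in bas1, and 0.683% and 1.76% in ino4. HEM13, an oxygen-dependent heme synthesis enzyme whose gene is raised in low oxygen, had 373 in WT, against 602 in bas1 and 474 in ino4, and HMX1, the heme oxygenase, had 524, 810 and 519.7. HEM2, an early enzyme of heme synthesis, had 61.0, 63.8 and 47.2, and HEM4, a later one, had 87.9, 133 and 96.8. The list of 10 oxygen- and heme-regulated genes had medians of 0.25 in bas1 and 0.27 in ino4. In this list bas1 was at least 2-fold above WT at 2 genes, beside 0.975% of all compared entries. These were TIR1, a cell wall mannoprotein gene, with 102 in WT, against 371 in bas1 and 168 in ino4, and ANB1, a hypoxic translation factor gene, with 4.74, 14.1 and 9.68. None of the 10 was past the rule in ino4, although ANB1 was 2.04-fold higher by plain ratio. With a pseudocount of 0.1 ANB1 passed the rule in ino4 (1.01), and with a pseudocount of 5 it no longer did in bas1 (0.97). Of 16 iron regulon genes 1 was at least 2-fold lower in bas1, beside 2.34% of all compared entries. This was SIT1, a siderophore transporter, with 262 in WT, against 127 in bas1 and 249.9 in ino4. FET3, the multicopper oxidase of iron uptake, had 68.6, 42.2 and 85.5, and ARN2, which shares its position with another entry, had 18.1, 16.8 and 22.3. The iron list had medians of -0.06 in bas1 and -0.01 in ino4, and HMX1 stands in both this list and the heme list.

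**Figure D4:**
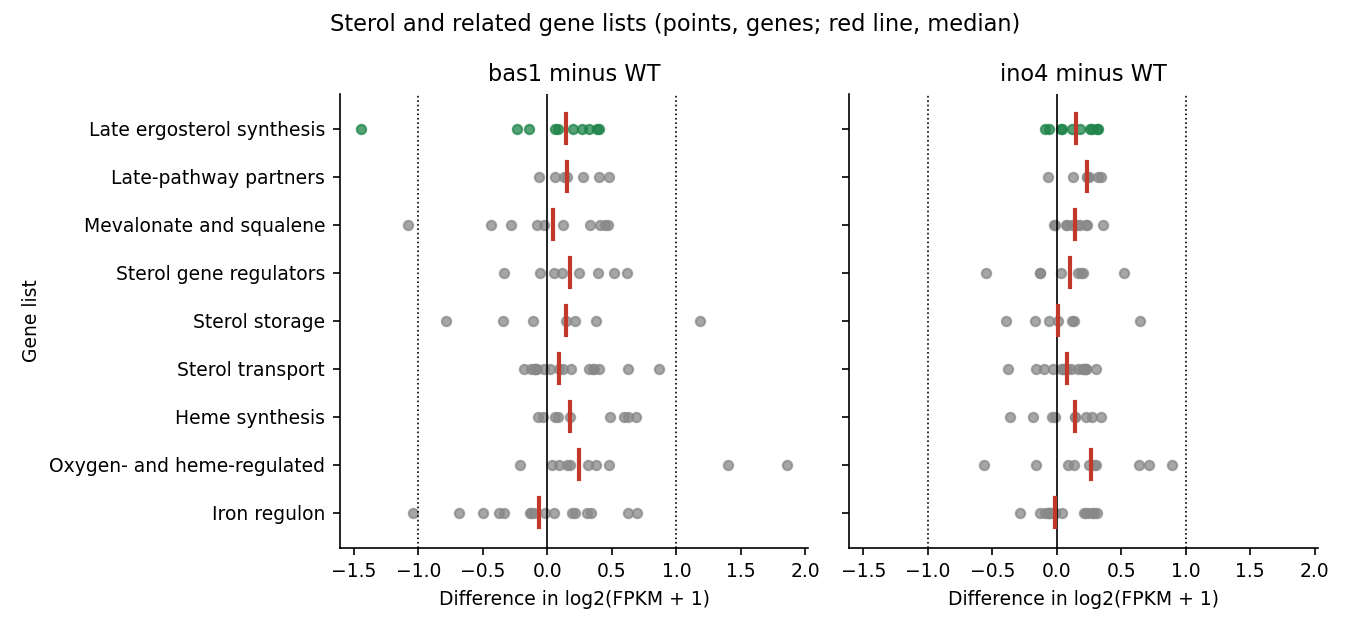
Differences in log2(FPKM + 1) from WT in bas1 and in ino4 for the late ergosterol genes (green) and 8 related lists (grey), with a point per gene, a red line at each list's median and dotted lines at the 2-fold rule. In bas1 ERG3 (-1.44) is the lowest of all points and TIR1 (1.86) the highest, and in ino4 no point reaches the rule at the pseudocount of 1 plotted, with ANB1 (0.90) the highest.

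Middle meiotic genes differed between the same cultures. Of 7 such genes, bas1 was at least 2-fold above WT at 4, beside 0.975% of all compared entries. In ino4 3 of the 7 were at least 2-fold below WT, beside 1.76% of all compared entries. Their summed FPKM was 2942 in WT, against 5191 in bas1 and 1557 in ino4, and no member was at 0. SPS4 held much of that sum, with 1897, 3032 and 885. All 7 were above WT in bas1 and below it in ino4. NDT80, which switches on the middle genes, had 282, 525 and 277. Of the 7 early genes 0 were past the rule. Among all entries 0.975% were higher and 2.34% lower in bas1, and 0.683% and 1.76% in ino4. The summed FPKM of the early genes was 16378 in WT, against 17849 in bas1 and 15308 in ino4. IME1 held much of that sum, with 7919, 7959 and 6261. All 7 early genes were above WT in bas1, and in ino4 4 were above and 3 below. The part of these differences in the values of the ergosterol genes was not tested. By summed middle gene FPKM bas1 was highest and ino4 lowest. At ERG3 bas1 (103) was lowest, while WT (282) and ino4 (318) were close, with no spread known to order them. A link between the middle genes and ERG3 was not tested.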

How the data were processed

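The authors' deposited table gives FPKM values, 1 per genotype per the file headers, for gene models in sacCer2. STAR and Cufflinks were used, per the submitters' processing notes, which give neither their versions nor their settings. The way in which values of a genotype's 2 samples were merged is also not given. Starts were raised by 1 to count from 1. Low FPKM values times length were checked for whole reads. At the best of many units 20.1% (WT), 18.5% (bas1) and 17.5% (ino4) of values came within 0.05 of a whole number (10% by chance for a fixed unit), so reads were not recovered and depth is unknown.

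Values were compared as log2(FPKM + 1) without further scaling, using Python 3.11.15, numpy 2.4.6 and pandas 2.3.3, and the steps were tested on simulated data. The planned limma test needs a value per sample and was replaced by the planned description at 2-fold. Members and lists were chosen with earlier results of these data known. The meiotic lists were added after the other values were seen. BAS1, INO4, UPC2, ECM22 and HAP1 were always named. Other genes were named when past 2-fold or as the 2 largest differences of a list, and neighbours within 5 kb of ERG3 or past 2-fold beside a member. ERG27, the meiotic genes and the genes of the closing section were named after their values were seen. List symbols were matched with synonyms from RefSeq assembly R64. Of the 10 members, 9 had the same length there and 2 the same start, so R64 coordinates and sequence were not used and the planned motif and protein descriptions were not made. Alternatives were other pseudocounts, filters, scalings and a 1.5-fold rule, and leaving out entries at shared positions.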

Additional observations from a re-analysis of the deposited data

How the results depend on the processing

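Under 5 alternatives that can move a value (pseudocounts of 0.1 and 5, and median, quantile and trimmed mean scaling) all 150 recomputed differences of the 10 genes kept their sign and their side of the rule. The other 4 (no filter, a filter at an FPKM of 20, a 1.5-fold rule, and entries at unshared positions only) leave a gene's own difference as it is by construction and change only the rule or the entries compared. ERG3 ranged from -1.45 to -1.41 for bas1 minus WT, from 0.17 to 0.19 for ino4 minus WT and from -1.63 to -1.58 for bas1 minus ino4. The counts past the rule stayed at 1 lower, 0 and 1 lower for the 3 comparisons. At the 1.5-fold rule the background of entries that were lower was 7.33% for bas1 minus WT and 8.22% for bas1 minus ino4, in place of 2.34% and 2.78%. Medians moved by less than 0.1. Leaving out entries at shared positions removes ERG7. No paired analysis was possible because the table holds 1 value per genotype, and for the same reason leaving out single samples was not run. Depth is unknown, so counting error at the lower genes such as ERG24 and ERG7 cannot be given.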

Other observations

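Within 10 kb of ERG3, a distance chosen after the values were seen, 13 other entries were compared. Of these 2 were at least 2-fold lower in bas1 and 0 at least 2-fold higher, beside 2.34% and 0.975% of all compared entries. Besides SHM2 the other was YLR053C (chromosome XII, 248101 to 248427), which ends 5434 bp before ERG3 and stood at 242 FPKM in WT, at 68.3 in bas1 and at 207 in ino4.

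ADE6, a purine synthesis gene, is the nearest compared entry after ERG25, 395 bp from it, and was picked out after its values were seen. Its FPKM was 19.1 in WT, against 12.7 in bas1 and 21.4 in ino4, while ERG25 had 2032, 2337 and 1952.

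INO2, which encodes the partner of Ino4, stood at 41.4 FPKM in WT, at 22.6 in bas1 and at 42.1 in ino4. ARE1, one of a pair of sterol acyltransferase genes, had 8.37, 4.44 and 9.15 and shares its position with another entry, while ARE2, the other of the pair, had 1004, 930.1 and 964.7. OLE1, the fatty acid desaturase gene, had 4471, 4582 and 3016.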
